A study of Mus musculus with 13 samples.

Results

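The comparison described here is that of mouse embryonic fibroblasts carrying a hairpin against Setdb1 with fibroblasts carrying a control hairpin, both after the DNA methylation inhibitor 5-azacytidine (5-aza). It rested on 6 of the 13 RNA-seq libraries of the series and on 13134 of the 25965 gene intervals of the expression table, which had reached 1 RPM (the reads of a gene scaled by the reads of its library) or more in 3 or more hairpin libraries out of 12. The knockdown group held 3 libraries, Setdb1_4a_5aza and Setdb1_4b_5aza with hairpin shSetdb1.4 and Setdb1_6_5aza with hairpin shSetdb1.6. The control group held 3 libraries, Nons_a_5aza and Nons_b_5aza with a non-silencing hairpin and Luc_5aza with a hairpin against luciferase. All were primary female fibroblasts from embryos at E13.5 that carried a mutant Xist allele (Xist∆A) on the maternal X chromosome and a normal allele on an X of the PGK strain. They were transduced with retrovirus, selected with puromycin after 24 h, treated with 5-aza for 24 h from day 3 after transduction and harvested on day 7. The same hairpins without 5-aza (6 libraries) are given beside the results for reference. According to the study's text the cells given Setdb1 hairpins were also heterozygous for a gene-trap allele of Setdb1 (Setdb1+/gt) and the Nons cells were wild type, and it gives no genotype for the Luc cells. Hairpin and genotype therefore cannot be told apart in these libraries. The labels do not say whether the libraries came from separate cultures or embryos, and p-values measure only the spread between these samples, which may be technical.

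Setdb1 is a histone methyltransferase that places methyl groups on lysine 9 of histone H3 (H3K9). It is brought to its targets mainly by KRAB zinc finger proteins through the corepressor Trim28, and by the HUSH complex, and it is kept stable in the nucleus by its partner Atf7ip. It is best known for silencing retroviral sequences and germline genes, and some of the same loci are also held silent by DNA methylation. 5-aza is built into nucleic acid during replication and traps the DNA methyltransferases, so dividing cells lose methylation. The comparison addresses what Setdb1 depletion changes in fibroblasts whose DNA methylation is also being reduced.

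The hairpins used for the knockdown are given because each marks the stretch of Setdb1 mRNA that was targeted. The letters are the 22-base sense strand of the stem, 5′ to 3′, with the bases that match the Setdb1 transcript ENSMUST00000015841.11 in capitals.
shSetdb1.4: aACAGATGACTTTGCAGACAAA
shSetdb1.6: aAAAAGCAGTTCTCAAGATCTA
In both stems 21 bases matched and the base at position 1 did not. On GRCm38 the shSetdb1.4 site lies at chr3:95327805-95327826 in coding exon 16 and the shSetdb1.6 site at chr3:95348003-95348024 in coding exon 5, both on the - strand. The sites do not overlap, and the shSetdb1.4 and shSetdb1.6 sites occur in 4 and 5 of the 6 annotated Setdb1 transcripts.

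The 6 libraries held 46.4 to 53.7 M reads by the smallest step in each column, and 1 read was worth 0.0186 to 0.0215 RPM. Each of the 14 fibroblast markers listed was read in all 6 libraries. Their summed level ran from 26213 to 37935 RPM in the controls and from 25218 to 31868 RPM in the knockdown. The 18 macrophage markers summed to 16.6 to 17.9 RPM in the controls and 16.4 to 17.3 RPM in the knockdown, the 8 endothelial markers to 4.44 to 6.70 and 4.90 to 6.49 RPM, and of the 3 tested genes of each list 0 macrophage genes passed and 1 endothelial gene, Emcn, was lower (-0.55), with a call lost in 10 of 15 alternative analyses, every fit without a library among them. In bulk RNA, fewer cells of a type and less RNA per cell cannot be told apart.

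The 3 control libraries with 5-aza stood apart from the other hairpin libraries at a set of processed pseudogenes, intronless copies of other genes. At 32 tested genes all 3 of them lay more than 1.5 times above each of the other 9 hairpin libraries. Of these 32 genes 23 were processed pseudogenes, against 294 of all 13134 tested genes. By the same rule the knockdown libraries with 5-aza stood above at 19 genes, of which 0 were processed pseudogenes. All 32 genes were called lower in the knockdown with 5-aza. The rule that picked them made this all but certain, since it set these controls above the knockdown libraries. Some, such as Rps15a-ps1 and Rpl26-ps2, had a mean of 1 RPM or more in this group alone, so the filter favoured it. The 32 included 27 of the 64 genes lower by at least 2-fold, so these falls are described apart from the rest at the end. Outside the 32, 673 genes were called lower, 37 of them by at least 2-fold.

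Setdb1 itself (ENSMUSG00000015697, chr3:95323525-95357202, - strand) stood at 42.7, 43.4 and 43.9 RPM in Nons_a, Nons_b and Luc and at 14.5, 13.7 and 10.5 RPM in Setdb1_4a, Setdb1_4b and Setdb1_6. Every knockdown library lay below every control library, and the shSetdb1.6 library was the lowest. The mean level left was 29.8% of the control mean, with 33.5%, 31.6% and 24.1% in the 3 libraries. The log2 fold change was -1.76 ± 0.11 (SE, n = 3 against 3, limma adjusted p = 1.25e-06). Without 5-aza it was -1.73, and the test of the difference between conditions was not passed (limma interaction adjusted p = 0.955). The Setdb1 interval overlaps that of Lass2 and the counting is not stated to use strand.

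None of the other H3K9 methyltransferases fell past the test on the deposited values. Of the 9 listed, all of which were tested, 4 rose and 1, Setdb1, fell, against 14.5% and 5.37% of all genes. Without Setdb1_6 2 rose. Suv39h1, which trimethylates H3K9 in pericentromeric heterochromatin, was read at 18.8, 19.6 and 19.2 RPM in the controls and 24.6, 22.4 and 23.7 RPM in the knockdown (log2 fold change 0.30 ± 0.05, limma adjusted p = 0.00298). Its paralogue Suv39h2 stood at 4.67, 4.67 and 4.68 RPM against 6.58, 5.81 and 7.33 RPM (0.48 ± 0.12, adjusted p = 0.0127). For both genes the 3 knockdown libraries were all above the 3 controls. The H3K9 monomethyltransferase Prdm16 rose by 0.61 ± 0.08 on the log2 scale (adjusted p = 3.42e-04), and its relative Mecom by 0.22 ± 0.07 (adjusted p = 0.0392), the latter losing its call in 9 alternative analyses. Ehmt1 and Ehmt2, which form the complex that dimethylates H3K9, had log2 fold changes of 0.04 and 0.09 (adjusted p = 0.461 and 0.126). Setdb2, with 0.11, and Prdm2, with -0.07, did not pass either (adjusted p = 0.359 and 0.185), but after each library was centred on its median Prdm2 was called lower (-0.13, limma adjusted p = 0.0443).

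**Figure D1:**
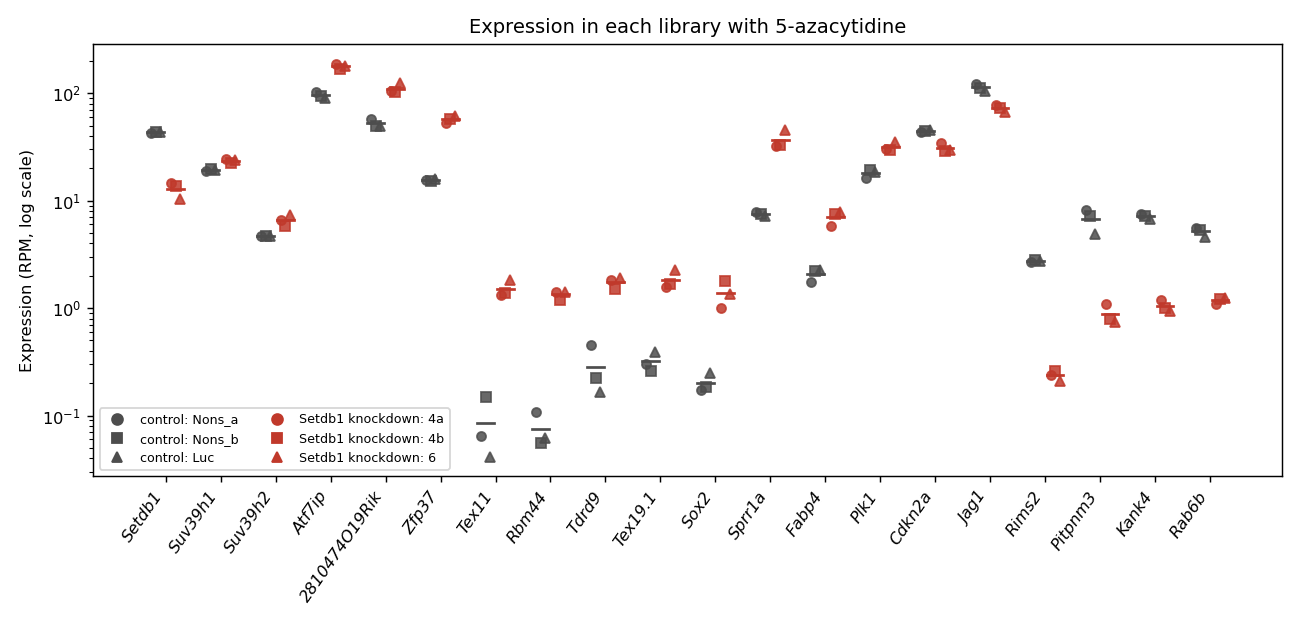
Expression in RPM on a log axis for 20 genes named in the text, 1 point per library with 5-aza, grey for controls and red for the Setdb1 knockdown, with the group mean as a bar. In each of these genes the 3 red points lie on the same side of the 3 grey points, above them for genes such as Zfp37 and Tex11 and below them for Setdb1, Jag1, Cdkn2a, Rims2, Pitpnm3, Kank4 and Rab6b. Atf7ip is the interval that starts at position 136518851.

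Across all genes, 2609 (19.9% of those tested) differed between knockdown and control with 5-aza at an adjusted p under 0.05. The rise was the more frequent direction, with 1904 genes higher (14.5%) and 705 lower (5.37%), but this split depended on scaling: 73.0% of the calls were higher as deposited, 48.7% after each library was centred on its median and 54.6% after quantile normalization. The median log2 fold change of all tested genes was 0.05 as deposited and -0.01 after centring. In size most differences were small, with a median size of 0.33 on the log2 scale among the called genes. At least 2-fold differences were found for 173 genes, 109 higher (0.83%) and 64 lower (0.487%), and 21 rises and 9 falls were at least 4-fold.

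Both hairpin sequences moved the called genes in the same direction. In all 2609 the shSetdb1.6 library and each shSetdb1.4 library lay on the called side of the control mean. This agreement is in part built into the call, since the same libraries entered the test. Among the 173 genes that differed by at least 2-fold, the median size of the difference was 1.33 for shSetdb1.4 and 1.49 for shSetdb1.6 on the log2 scale. The 2 groups did not overlap at 34.7% of all tested genes and at 2487 of the 2609 called ones.

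Large differences were most frequent among genes with few reads, where the filter itself favours the group that is high. Of 1161 genes with a mean under 2 RPM, 50 rose and 33 fell by at least 2-fold, whereas 5 rose and 1 fell by as much among the 3744 genes over 50 RPM. Among tested genes, 242 reached 1 RPM in fewer than 3 control libraries and so passed through the knockdown libraries. They included 47 of the 109 genes that rose by at least 2-fold. Conversely, 163 reached 1 RPM in fewer than 3 knockdown libraries, and these included 21 of the 64 genes that fell by at least 2-fold.

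**Figure D2:**
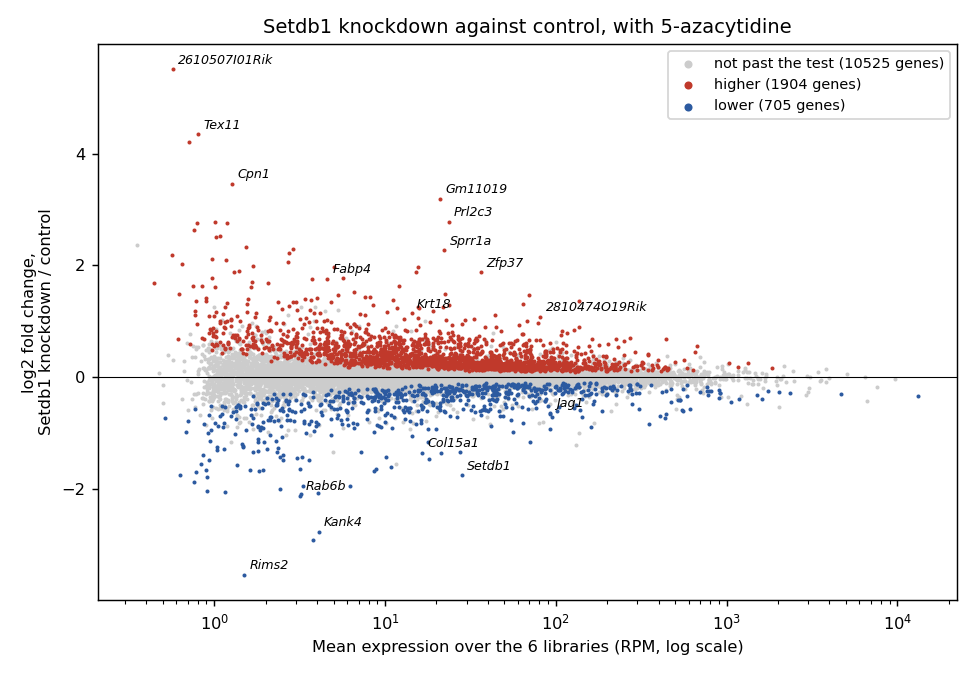
The log2 fold change of each of the 13134 tested genes, Setdb1 knockdown over control with 5-aza, against its mean over the 6 libraries in RPM on a log axis, with genes higher in red, lower in blue and the rest in grey. Most of the largest rises and falls sit at the left, while Gm11019, Prl2c3, Sprr1a and Zfp37 rose by 3.19, 2.78, 2.27 and 1.88 on the log2 scale at means above 10 RPM.

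Genes for proteins that work with Setdb1 were among those that rose. Of 19 tested intervals of Setdb1 partners, HUSH subunits and readers of H3K9 methylation, 10 rose and 0 fell, against 14.5% and 5.37% of all genes, with a median log2 fold change of 0.17 against 0.05 for all genes. Atf7ip (ENSMUSG00000030213, chr6:136518851-136607377, + strand), whose protein protects Setdb1 from degradation, was read at 103, 93.8 and 90.03 RPM in the controls and 188, 169 and 178 RPM in the knockdown. The lowest knockdown library was thus well above the highest control (log2 fold change 0.90 ± 0.06, limma adjusted p = 1.25e-06). A second interval of the same gene, chr6:136608859-136610870, went from 12.3, 11.3 and 11.6 RPM to 28.4, 27.4 and 23.7 RPM (1.17 ± 0.07). 2810474O19Rik, now named Resf1, encodes another protein known to bind Setdb1 and to aid retroviral silencing. It stood at 57.4, 49.5 and 49.96 RPM in the controls and 104, 102 and 125 RPM in the knockdown, again with no overlap (1.07 ± 0.09, adjusted p = 1.11e-05). The same rises were present without 5-aza, with log2 fold changes of 1.02 and 1.29 for the intervals of Atf7ip and 1.07 for 2810474O19Rik.

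The remaining partners moved less. Chaf1a and Chaf1b, subunits of the chromatin assembly factor CAF-1, had log2 fold changes of 0.43 and 0.62, and Mbd1, a methyl-CpG binding protein that recruits Setdb1, had 0.55. Trim28 had 0.24. Of the HUSH subunits, D14Abb1e (Fam208a, or TASOR) rose by 0.23, whereas Mphosph8 and Pphln1 had values of 0.00 and 0.03 and did not pass. The genes of this paragraph were picked from the list after their values were seen. The count of the list ranged from 7 to 11 when a library was left out.

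Zinc finger genes, many of which encode the KRAB proteins that bring Setdb1 to DNA, did not move as a family. Of 324 tested genes named Zfp, 34 rose and 8 fell, 12.96% called against 19.9% of all genes, and their median of 0.05 turned to -0.01 after centring, as did that of all genes. Zfp37 (ENSMUSG00000028389, chr4:62189540-62208446, - strand) had the largest rise among them. Its level was 15.6, 15.2 and 15.9 RPM in the controls and 52.8, 57.4 and 61.5 RPM in the knockdown, and the replicates of each group lay close together (log2 fold change 1.88 ± 0.06, adjusted p = 5.99e-09). Zfp760 went from 8.29, 7.74 and 9.52 RPM to 16.3, 18.1 and 17.8 RPM (1.04 ± 0.08), and Zfp958 rose by 0.61 ± 0.08. After centring 17 of the family rose and 15 fell, and without Nons_b 14, without Setdb1_6 15 and without Setdb1_4b 17 rose. Zfp40, Zfp521 and Zfp286 fell, with log2 fold changes of -0.58, -0.58 and -0.55.

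Germline genes, which act in meiosis and in the small RNA pathway that silences transposons in germ cells, were mostly below the filter in these fibroblasts, and several of those above it were higher in the knockdown. Of 79 listed intervals in the table, 21 passed the filter. Of these 12 rose and 0 fell, against 14.5% and 5.37% of all genes, with a median log2 fold change of 0.52 against 0.05. In 7 of the 21, including Tex11, Rbm44, Tdrd9 and Tex19.1, fewer than 3 control libraries reached 1 RPM, so their entry into the test depended on the knockdown libraries. Of the other 14, 7 rose. Tex11 (ENSMUSG00000009670, chrX:100838648-101059667, - strand), needed for meiotic crossing-over, was read at 0.0646, 0.149 and 0.0415 RPM in the controls and 1.32, 1.39 and 1.82 RPM in the knockdown (4.35 ± 0.52, limma adjusted p = 2.31e-04). Rbm44, which marks the bridges between germ cells, stood at 0.108, 0.0558 and 0.0622 RPM against 1.4003, 1.19 and 1.42 RPM (4.21 ± 0.64, adjusted p = 0.00109). In both genes the knockdown libraries were all far above the controls, which held few reads.

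Tdrd9, a helicase of the transposon-silencing pathway, was read at 0.452, 0.223 and 0.166 RPM in the controls and 1.82, 1.51 and 1.92 RPM in the knockdown (2.77 ± 0.31, adjusted p = 1.50e-04). Tex19.1, which limits transposons in germ cells and placenta, stood at 0.301, 0.261 and 0.394 RPM against 1.56, 1.69 and 2.26 RPM (2.53 ± 0.28, adjusted p = 1.24e-04). Stag3, a meiotic cohesin subunit, rose from 1.098, 1.01 and 1.02 RPM to 4.08, 4.32 and 4.58 RPM (2.06). Rnf17, Tex15 and Syce2, a protein of the synaptonemal complex, rose by 1.89, 1.63 and 1.21 on the log2 scale, and these 4 genes were named after their values were seen. Dazl, with 1.11, did not pass (adjusted p = 0.147). Leaving out a library gave 9 to 13 rises in the list, and requiring at least 5 RPM left 4.

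The promoters of the 3 germline genes with the largest rises that had an entry in the RefSeq promoter table (GRCm38.p6) are given because these genes moved together. Each line is the 250 bases before the start of the gene, 5′ to 3′ on the strand of the gene. Capitals mark TCCCGC or its reverse complement GCGGGA, the core letters bound by E2F6, a repressor of germline genes.
Tdrd9: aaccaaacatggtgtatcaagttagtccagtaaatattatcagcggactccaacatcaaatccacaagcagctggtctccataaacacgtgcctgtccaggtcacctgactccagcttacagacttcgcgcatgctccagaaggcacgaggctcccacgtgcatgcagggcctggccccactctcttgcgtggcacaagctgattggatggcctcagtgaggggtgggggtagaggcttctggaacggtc
Tex19.1: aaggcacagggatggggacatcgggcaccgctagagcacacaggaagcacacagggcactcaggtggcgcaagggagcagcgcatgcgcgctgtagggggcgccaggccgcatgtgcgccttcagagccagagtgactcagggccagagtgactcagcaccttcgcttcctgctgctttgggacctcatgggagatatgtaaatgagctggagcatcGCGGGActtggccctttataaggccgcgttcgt
Stag3: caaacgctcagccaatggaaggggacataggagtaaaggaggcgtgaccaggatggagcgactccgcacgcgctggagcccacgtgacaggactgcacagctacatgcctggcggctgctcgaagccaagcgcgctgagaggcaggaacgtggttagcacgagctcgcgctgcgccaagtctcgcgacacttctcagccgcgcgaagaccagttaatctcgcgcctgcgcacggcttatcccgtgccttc
They lie at chr12:111971309-111971558, chr11:121145893-121146142 and chr5:138280259-138280508, all on the + strand. The letters occurred in the window of Tex19.1 alone, and in 16.9% of the windows of all 27025 genes in the table. Of the 8964 tested genes with an entry, 2794 held them. The 3 windows shown held 8, 15 and 26 CpG dinucleotides, the sites of DNA methylation. Only 16 of the 21 tested members had an entry, which is below 80%, so no share is given for the list.

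Among the other large rises, the non-coding transcript 2610507I01Rik (ENSMUSG00000085882, chr11:59199836-59202385, - strand) was covered by 2, 1 and 0 reads in the controls and by 54, 59 and 58 reads in the knockdown. Scaled for depth the ratio of the summed reads was 55.5, with an exact 95% interval of 18.7 to 272 that covers counting error only. Gm11019, a lincRNA on chromosome 13, was read at 3.29, 3.798 and 5.56 RPM against 34.8, 37.5 and 40.4 RPM (3.19 ± 0.15, adjusted p = 2.55e-07). Its knockdown libraries all exceeded the controls by several times. Cpn1, the catalytic subunit of carboxypeptidase N, rose by 3.46 ± 0.24. Got1l1 (2.76), 4930447C04Rik (2.64) and Gm13225 (2.32) rose from under 1 RPM in each control. So did 2610507I01Rik and Cpn1, and the entry of all these genes into the test depended on the knockdown libraries. The interval of 4930447C04Rik overlaps that of Six6, and Gm13225 belongs to a family of similar genes between which reads may be split.

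Sox2, a transcription factor of stem and neural progenitor cells, was read at 0.172, 0.186 and 0.249 RPM in the controls and 1.0002, 1.79 and 1.36 RPM in the knockdown (2.75 ± 0.23, adjusted p = 1.52e-05), with no overlap between the groups. Its interval lies within that of the non-coding gene Sox2ot. Sox2 stayed under 1 RPM in each control, so its entry into the test depended on the knockdown libraries. Sprr1a, a cornified envelope protein that stressed cells also make, went from 7.88, 7.52 and 7.26 RPM to 32.3, 32.6 and 45.7 RPM (2.27 ± 0.15, adjusted p = 1.77e-06). Angptl7, a secreted angiopoietin-like protein whose interval lies within Mtor, went from 0.8397, 0.745 and 1.39 RPM to 3.401, 5.73 and 5.29 RPM (2.298 ± 0.43). Luc alone of these controls reached 1 RPM for Angptl7, so its entry into the test rested largely on the knockdown libraries. The proliferin genes Prl2c3 and Prl2c2, prolactin relatives made by placenta and by growing fibroblasts, rose together, and their near-identical sequences leave the division of reads between them uncertain. Prl2c3 was read at 2.93, 5.19 and 10.97 RPM in the controls and 21.3, 54.1 and 47.1 RPM in the knockdown (2.78 ± 0.59, adjusted p = 0.00749), and Prl2c2 rose by 2.51 ± 0.65 (adjusted p = 0.0187). The controls differed among themselves, Luc being the highest. Prl2c2 stayed under 1 RPM in each control, so its entry into the test depended on the knockdown libraries.

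Rims2, a scaffold protein of vesicle release sites (ENSMUSG00000037386, chr15:39198332-39681940, + strand), fell the most. Its level was 2.71, 2.81 and 2.74 RPM in the controls and 0.2401, 0.259 and 0.211 RPM in the knockdown (-3.55 ± 0.18, adjusted p = 2.57e-07). Pitpnm3, a phosphatidylinositol transfer protein, went from 8.12, 7.19 and 4.87 RPM to 1.08, 0.796 and 0.748 RPM (-2.93 ± 0.24), and Luc was the lowest control. Kank4, a cytoskeletal adaptor, went from 7.43, 7.19 and 6.74 RPM to 1.2003, 0.995 and 0.9397 RPM (-2.77 ± 0.15), and Rab6b, a GTPase of Golgi transport, from 5.55, 5.34 and 4.602 RPM to 1.08, 1.21 and 1.25 RPM (-2.13 ± 0.10). In all 4 genes every knockdown library was below every control. Rims2 stayed under 1 RPM in each knockdown library, so its entry into the test depended on the controls. Pitpnm3 and Kank4 were also under 1 RPM in some knockdown libraries. All 4 fell without 5-aza too, by log2 fold changes of -3.69, -2.13, -2.32 and -2.12. Fndc1 fell by -1.95 ± 0.46 but varied widely among the controls, at 15.8, 9.35 and 4.89 RPM, and AA465934, a non-coding transcript, had -1.75 ± 0.26.

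Nearly all genes listed for DNA replication and mitosis rose. Of 44 tested, 42 rose and 0 fell, against 14.5% of all genes higher, and the median log2 fold change was 0.61 against 0.05. Plk1, a mitotic kinase, was read at 16.4, 19.3 and 18.6 RPM in the controls and 30.1, 29.5 and 34.9 RPM in the knockdown (0.80 ± 0.09, adjusted p = 1.01e-04). Cenpa, the histone H3 variant of centromeres, stood at 8.03, 9.51 and 10.5 RPM against 15.5, 15.9 and 18.6 RPM (0.84 ± 0.13, adjusted p = 0.00107). For these genes the groups did not overlap. Rrm2, the small subunit of ribonucleotide reductase, had overlapping groups, with 64.2, 88.4 and 124 RPM in the controls and 109, 185 and 197 RPM in the knockdown (0.83 ± 0.25, adjusted p = 0.0381). The members without a call were Gins1 (0.16) and Gins2 (0.33), subunits of the replicative helicase. The count stayed between 32 and 43 when a library was left out and was 42 after centring. Without 5-aza 27 of the 44 rose, against 9.01% of all genes, with a median of 0.39, and the interaction test called 0 of them.

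Of the CDK inhibitors, which hold cells out of the cycle, 3 fell and 4 rose, against 5.37% of all genes lower and 14.5% higher. Cdkn2a, the locus of p16Ink4a and p19Arf and a marker of fibroblasts that have aged in culture, was read at 43.5, 44.03 and 45.8 RPM in the controls and 34.6, 28.8 and 29.8 RPM in the knockdown (-0.52 ± 0.07, adjusted p = 3.43e-04). Its neighbour Cdkn2b went from 85.2, 86.9 and 88.5 RPM to 67.2, 62.6 and 59.8 RPM (-0.46 ± 0.07), and Cdkn1a, the p53 target p21, fell by -0.32 ± 0.07. In all 3 the knockdown libraries lay below the controls, and the 3 falls were called in every fit that left out a library. Cdkn1c, Cdkn2c and Cdkn2d rose, with log2 fold changes of 0.59, 0.51 and 0.29, though the rises were 1 without Nons_a or Nons_b and 2 without Setdb1_6 or Setdb1_4a. Of 29 genes of the p53 response tested, 2 rose and 2 fell, or 1 and 6 after centring and 2 and 4 after quantile normalization: Pmaip1, which promotes cell death, had 0.42 and Trp53 itself 0.17 with a call lost in 6 alternative analyses, while Btg2, which slows growth, had -0.44 and Cdkn1a fell as given above. Core histone genes of the clusters, most of which lack a poly(A) tail and share sequence, gave 5 rises and 4 falls among 33, a share of rises near the 14.5% of all genes, and 2 falls without Nons_a or Nons_b. Examples were Hist1h2ao at 0.65, Hist3h2a at 0.46 and Hist1h2bm at -0.83.

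The promoters of the 3 replication and mitosis genes with the largest rises are shown because members of the list moved together. Each line is again the 250 bases before the RefSeq start on the strand of the gene. Capitals mark CCAAT or its reverse complement ATTGG, the box bound by the factor NF-Y, which is frequent in promoters active in G2 and M phase.
Cenpa: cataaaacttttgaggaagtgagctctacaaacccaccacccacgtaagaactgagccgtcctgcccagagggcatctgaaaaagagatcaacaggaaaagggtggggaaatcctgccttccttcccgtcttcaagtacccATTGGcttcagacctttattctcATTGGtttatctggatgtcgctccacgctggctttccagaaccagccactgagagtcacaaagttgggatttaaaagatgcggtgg
Rrm2: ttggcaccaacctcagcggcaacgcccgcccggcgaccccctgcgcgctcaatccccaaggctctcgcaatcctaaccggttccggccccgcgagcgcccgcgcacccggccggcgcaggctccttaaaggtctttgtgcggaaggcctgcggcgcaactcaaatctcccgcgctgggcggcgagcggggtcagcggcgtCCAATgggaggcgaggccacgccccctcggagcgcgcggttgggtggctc
Plk1: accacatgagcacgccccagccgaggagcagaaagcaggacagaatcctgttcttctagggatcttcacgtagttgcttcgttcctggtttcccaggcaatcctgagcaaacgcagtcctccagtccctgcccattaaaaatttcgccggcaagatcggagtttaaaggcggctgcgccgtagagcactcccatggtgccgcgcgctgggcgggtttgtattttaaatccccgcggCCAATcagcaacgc
They lie on GRCm38.p6 at chr5:30666636-30666885, chr12:24708004-24708253 and chr7:122159185-122159434, all on the + strand. Cenpa held 2 matches and Rrm2 and Plk1 held 1 each, and 34.5% of the windows of all 27025 genes in the table hold at least 1. Of the 8964 tested genes with an entry, 3289 hold at least 1. Entries were found for 34 of the 44 tested members, below 80%, so no share is given for the list.

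**Figure D3:**
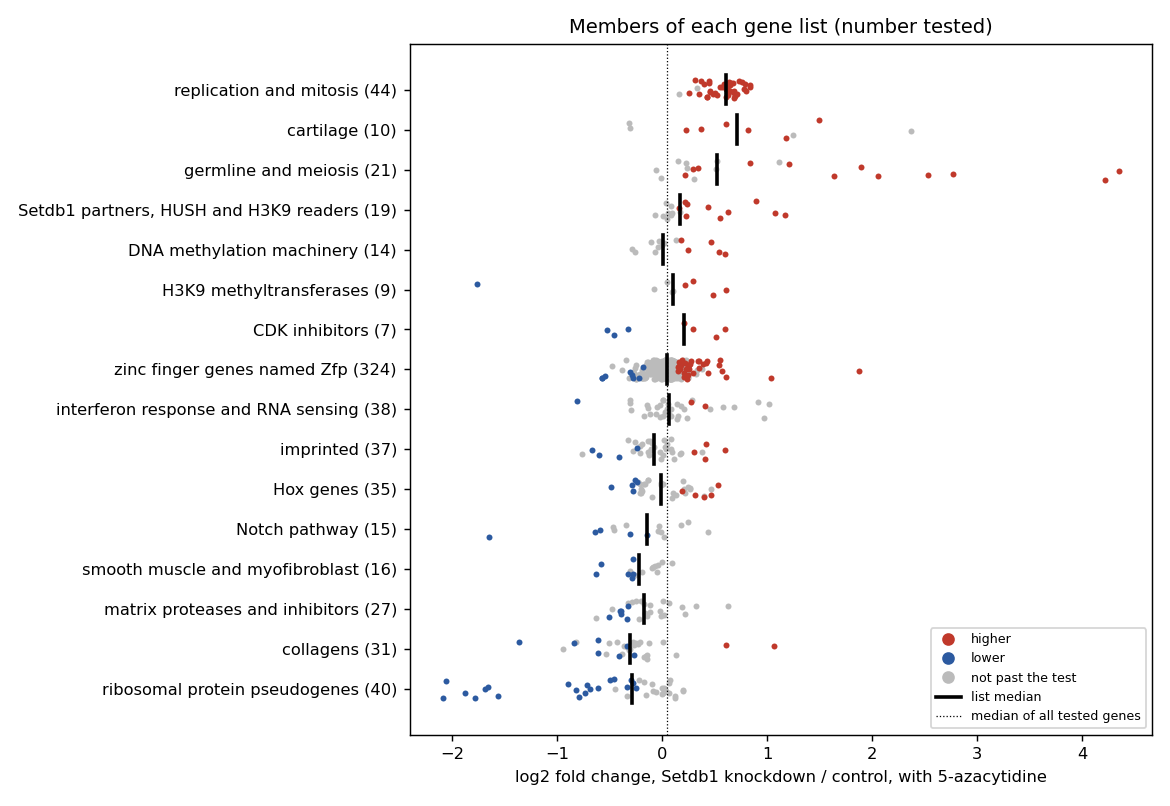
The log2 fold change with 5-aza of every tested member of 16 gene lists, 1 point per gene, red for higher, blue for lower and grey for not past the test, with the list median as a black bar and the median of all tested genes as a dotted line. The replication and mitosis genes lie almost wholly to the right, with a median of 0.61, and the collagens mostly to the left, with a median of -0.31.

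Of 10 tested genes of the cartilage lineage, 6 rose, 4 did not pass and 0 fell, against 14.5% of all genes higher and 5.37% lower. Their median log2 fold change was 0.71 against 0.05 for all genes. In 4 of the 10 fewer than 3 control libraries reached 1 RPM, and of the other 6 genes 4 rose. The summed level of all 16 listed genes overlapped between the groups, at 205 to 270.3 RPM in the controls and 244 to 268 RPM in the knockdown. Sox5 and Sox6, which act with Sox9 to drive cartilage genes, stood at 2.002, 1.23 and 1.51 RPM against 2.86, 2.61 and 2.704 RPM (0.81 ± 0.16, adjusted p = 0.00453) and at 0.624, 0.4096 and 0.394 RPM against 1.08, 1.11 and 0.978 RPM (1.18 ± 0.24, adjusted p = 0.00658). Both separated the groups fully, but Sox6 lay close to the filter, under 1 RPM in each of these controls and at most 1.11 RPM in the knockdown. The matrix proteins Col2a1 (0.61 ± 0.17) and Hapln1 (1.49 ± 0.26) rose as well, as did the collagen IX chain Col9a3, from 1.89, 2.49 and 2.36 RPM to 5.04, 4.36 and 4.603 RPM (1.06 ± 0.11). Without Setdb1_4b or Nons_b 3 of the 10 rose. Among adipocyte genes 1 of 11 passed, against 19.9% of all genes. This was the lipid carrier Fabp4, read at 1.77, 2.22 and 2.24 RPM in the controls and 5.76, 7.47 and 7.901 RPM in the knockdown (1.76 ± 0.16, adjusted p = 2.95e-05).

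Matrix genes of fibroblasts leaned the other way. Of 31 collagen genes tested, 7 fell and 2, Col9a3 and Col2a1, rose, against 5.37% of all genes lower and 14.5% higher. Their median was -0.31 against 0.05 for all genes. Col15a1, a basement membrane collagen, stood at 31.7, 23.4 and 16.2 RPM in the controls and 12.4, 8.103 and 7.11 RPM in the knockdown (-1.36 ± 0.36, adjusted p = 0.02). Col6a2 had 583, 415 and 339 RPM against 370.4, 203 and 188 RPM (-0.84 ± 0.26) and Col6a1 -0.62 ± 0.19, and in both the Setdb1_4a library overlapped the controls. Nons_a was the highest control for these genes. The number of collagens that fell was 1 without Setdb1_6, without Setdb1_4b, without Nons_a or without Nons_b, 10 without Setdb1_4a and 12 without Luc, so the count rests on single libraries.

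Of 27 matrix proteases and their inhibitors 6 fell and 0 rose, against 5.37% and 14.5% of all genes. Among the 6 were the aggrecanases Adamts5 (-0.51) and Adamts1 (-0.40) and the inhibitor Timp3 (-0.39). Wisp2, a matricellular protein of the CCN family, went from 126, 123 and 118 RPM to 102, 73.8 and 67.8 RPM (-0.62 ± 0.12, adjusted p = 0.00443), while the YAP-responsive gene Ankrd1 had a rise of 0.45 that lost its call in 7 alternative analyses. Thbs1 and Lox, with -0.34 and -0.29, lost theirs in 3 and 5, and quantile normalization set Thbs1 to no difference. Of the 16 matricellular and YAP-responsive genes tested 3 fell, or 1 without Setdb1_6, 2 without Setdb1_4b, Nons_a or Nons_b, 5 without Setdb1_4a and 6 without Luc. Of the 14 fibroblast markers 2 fell, Thy1 (-0.46) and Prrx1 (-0.23), and 0 rose. Without Setdb1_6, Setdb1_4b, Nons_a or Nons_b 1 of them fell, without Setdb1_4a 4 and without Luc 5, and with the replicate block 8, and Thy1 lost its call in 6 alternative analyses. The protease count was 1 without Setdb1_6, 3 without Setdb1_4b, Nons_a or Nons_b, and 10 without Setdb1_4a.

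Smooth muscle and Notch genes also fell in part. Of 16 smooth muscle and myofibroblast genes 6 fell and 0 rose, against 5.37% and 14.5% of all genes. The falls included Myocd, the coactivator that drives this programme, at 3.44, 3.18 and 4.27 RPM against 2.14, 2.41 and 2.44 RPM (-0.63 ± 0.13, adjusted p = 0.0054), Itga8 (-0.58 ± 0.12) and Lmod1 (-0.33 ± 0.06). Leaving out a library gave 4 to 8. Actc1 and Mef2c fell among 7 tested skeletal muscle genes (-0.63 and -0.42). Of 15 Notch pathway genes 5 fell and 0 rose, against the same shares of all genes. The number that fell was 2 without Setdb1_6, without Setdb1_4b, without Nons_a or without Nons_b. The ligand Jag1 stood at 122, 113 and 104 RPM in the controls and 77.1, 73.5 and 66.3 RPM in the knockdown (-0.64 ± 0.09, adjusted p = 8.51e-04), the receptor Notch3 fell by -0.59 on the log2 scale, and the target Heyl, with -1.65 ± 0.53, overlapped between the groups.

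**Figure D4:**
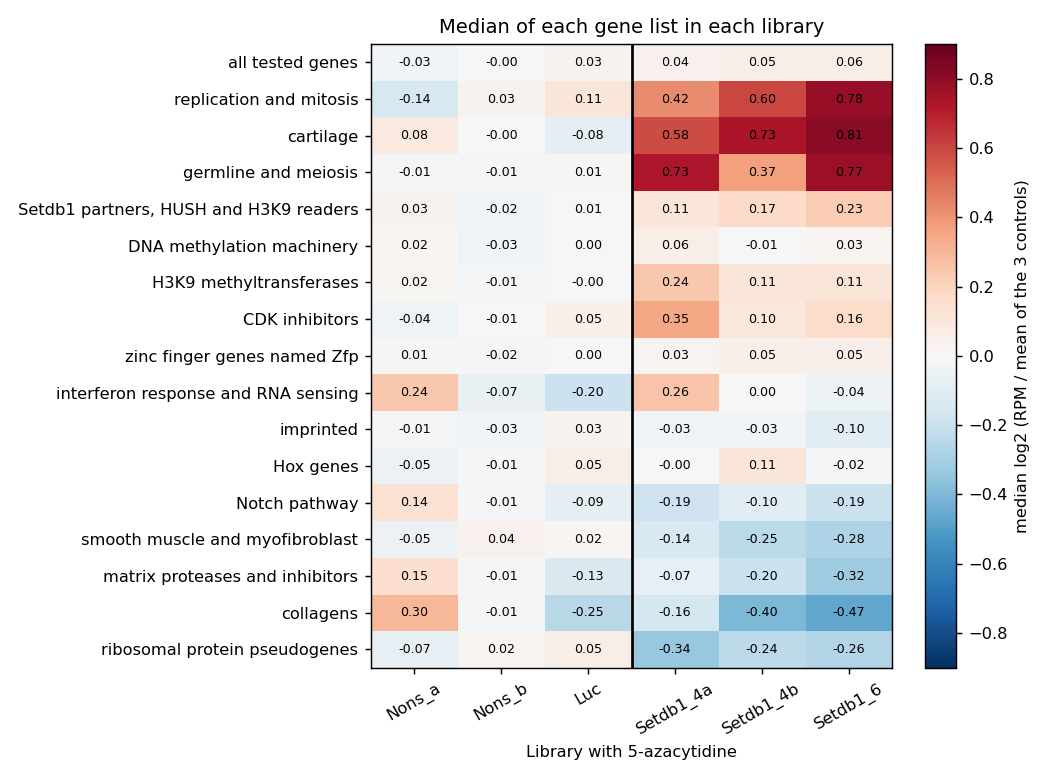
The median over each list of log2 RPM relative to the mean of the 3 controls, for each library with 5-aza, with controls left of the black line. Replication and mitosis genes are at 0.42, 0.60 and 0.78 in the 3 knockdown libraries against -0.14 to 0.11 in the controls, whereas the collagens range from -0.25 to 0.30 among the controls alone.

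Secreted signals changed in a few members. Of 18 chemokine and cytokine genes 5 fell and 1 rose, against 5.37% of all genes lower and 14.5% higher. Cxcl14, a chemokine of fibroblasts and epithelia, was read at 99.6, 98.1 and 93.6 RPM in the controls and 58.5, 42.6 and 32.2 RPM in the knockdown (-1.17 ± 0.19, adjusted p = 0.00136), and its groups were well apart. Il6 and Tgfb2 had log2 fold changes of -0.46 and -0.43, and Il11 rose by 0.61. The number that fell was 1 or 2 without Setdb1_6, Setdb1_4b, Nons_a or Nons_b.

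Keratin genes of simple epithelia, Krt8 and Krt18, whose proteins pair into filaments, both rose. Krt18 was read at 7.64, 9.55 and 9.702 RPM in the controls and 20.5, 19.7 and 18.6 RPM in the knockdown (1.14 ± 0.10, adjusted p = 1.91e-05), and Krt8 at 0.861, 0.912 and 0.808 RPM against 2.88, 2.05 and 1.96 RPM (1.395 ± 0.27, adjusted p = 0.00505). Each control held Krt8 under 1 RPM, so its entry into the test depended on the knockdown libraries. The 14 epithelial markers summed to 44.8 to 57.5 RPM in the controls and 70.5 to 83.7 RPM in the knockdown, and 4 of them were tested. Among 12 neuronal genes tested Gap43 (0.98 ± 0.18), Nefm (0.59) and Mtap2 (0.28) rose and Vgf fell (-1.17 ± 0.16), against 14.5% of all genes higher and 5.37% lower. There was 1 rise without Setdb1_6, Setdb1_4b or Nons_b. The summed level of the neuronal list overlapped between the groups, at 425 to 563 RPM in the controls and 405 to 477 RPM in the knockdown.

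Hox genes, which record position along the body axis and limb, gave 5 rises and 5 falls among 35, against 14.5% of all genes higher and 5.37% lower, so the share that rose was near that of all genes. Hoxd13, expressed in the distal limb, rose from 24.6, 27.1 and 26.7 RPM to 32.2, 35.2 and 35.9 RPM (0.40 ± 0.06, adjusted p = 7.07e-04) its neighbour Hoxd12 by 0.53 ± 0.08, and Hoxa6 had 0.46. Hoxc8 went from 53.8, 58.8 and 64.1 RPM to 42.5, 43.2 and 40.04 RPM (-0.49 ± 0.10, adjusted p = 0.00642), and Hoxc6 and Hoxb3 fell by -0.29 and -0.28 on the log2 scale. After centring 4 rose and 10 fell, and without Setdb1_6 1 fell, without Setdb1_4b or Nons_a 2, and without Nons_b or Luc 3.

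The machinery of DNA methylation was higher in part. Of 14 genes tested 5 rose and 0 fell, against 14.5% and 5.37% of all genes. Dnmt1, the maintenance methyltransferase, stood at 71.4, 71.002 and 75.6 RPM in the controls and 94.5, 98.7 and 108 RPM in the knockdown (0.46 ± 0.07, adjusted p = 7.23e-04). Uhrf1, which brings Dnmt1 to newly copied DNA, stood at 24.9, 26.8 and 27.5 RPM against 35.3, 39.3 and 46.3 RPM (0.60 ± 0.10, adjusted p = 0.00218), and the methyl-CpG binder Zbtb38 rose by 0.54 ± 0.06. All 3 separated the groups. Dnmt3a and Dnmt3b, the de novo enzymes, had -0.07 and -0.28 and did not pass (adjusted p = 0.603 and 0.195). The median of the list was 0.00 and turned to -0.06 after centring.

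Genes that sense or answer viral RNA, a known response to 5-aza, showed little difference between the groups. Of 38 tested, 2 rose and 1 fell, against 14.5% and 5.37% of all genes: Bst2 had 0.41, Ifi204 0.28 and Xaf1 -0.82 ± 0.19. Without Nons_a 9 rose. The list's median lay at 0.24 in Nons_a and 0.26 in Setdb1_4a, and between -0.20 and 0.00 in the other 4. MHC class I genes gave H2-D1 higher (0.29) and H2-T23 lower (-0.49) of 17. H2-T23 lost its call in 5 alternative analyses, and without Setdb1_6 neither was called. These are similar genes between which reads may be split. Of 13 clustered protocadherin transcripts, Pcdhac1 passed (0.45), and their intervals share exons.

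Of 37 imprinted genes tested 4 were higher and 4 lower. The share called, 21.6%, was near the 19.9% of all genes. Among those higher were Cdkn1c, a growth inhibitor expressed from the maternal allele, at 40.2, 41.8 and 53.8 RPM against 68.1, 70.7 and 64.6 RPM (0.59 ± 0.14, adjusted p = 0.013), and the paternally expressed Peg10 (0.41) and Plagl1 (0.40). Those lower included the neighbours H19, at 648, 499 and 470.0 RPM against 441, 318 and 268 RPM (-0.67 ± 0.17, adjusted p = 0.0164), and Igf2 (-0.41), and also the paternally expressed Mest (-0.60). H19 and Igf2 are expressed from opposite parental alleles. Without Setdb1_6, Setdb1_4b, Nons_a or Nons_b at most 1 rose and at most 2 fell, and 7 fell without Setdb1_4a, so these calls rest on single libraries. Total RNA levels do not show which allele was read.

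On the X chromosome, 57 of 431 tested genes rose (13.2%) and 25 fell (5.8%), against 14.5% and 5.35% of autosomal genes. This difference was not tested, and total levels do not separate the inactive from the active X. Besides Tex11, the largest rises were those of Apln, a secreted peptide, from 3.85, 4.41 and 4.98 RPM to 10.6, 11.1 and 14.1 RPM (1.43 ± 0.15, adjusted p = 7.06e-05), and of Xlr3a, from 2.24, 2.01 and 2.32 RPM to 6.101, 5.63 and 5.73 RPM (1.41 ± 0.09, adjusted p = 1.12e-06), which has near-identical copies. In both the groups were fully apart. The falls included Srpx (-0.99 ± 0.31), with overlapping groups, and Figf (-0.63 ± 0.15). Of the 6 tested genes of the X inactivation centre Rlim alone passed (0.18, adjusted p = 0.0423), and it lost its call in 11 alternative analyses.

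In the comparison of the same hairpins without 5-aza 1630 genes (12.4%) were called, 9.01% of all genes higher and 3.4% lower, and 1145 of the 2609 genes called with 5-aza were called in both, 1139 of them in the same direction, while 1464 were called with 5-aza alone. The comparisons use different libraries. Of the 173 genes that differed by at least 2-fold with 5-aza, 116 were called in the same direction without it. The test of the difference between the effects (interaction) called 51 genes (0.388%), in all of which the knockdown effect was more negative with 5-aza. Under other processing some calls went the other way, 5 of 59 with log2(RPM + 1), 10 of 62 without a filter, 3 of 48 after quantile normalization and 3 of 76 with the replicate block. Among the rises of at least 2-fold, Krt8 and Enpp2 were called. Krt8 had a log2 fold change of 1.395 with 5-aza and a larger one without it (difference -2.53, limma interaction adjusted p = 0.0139). Without 5-aza it held 1 read in each control and 22, 15 and 10 reads in the knockdown, a depth-scaled ratio of 15.8 with an exact 95% interval of 5.10 to 79.6, so the fitted difference rests on very few reads. Enpp2, which makes the lipid signal lysophosphatidic acid, had 1.26 with and 2.65 without (interaction adjusted p = 0.0192), and was picked after its value was seen. Its control means were 0.68 RPM with and 0.51 RPM without 5-aza, so its entry into the test rested largely on the knockdown libraries.

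Of the 51 genes, 33 were processed pseudogenes, against 294 of all 13134 tested genes. Of the 64 genes lower by at least 2-fold, 23 were among the 51. Over these 33 pseudogenes the median level was 2.54, 3.11 and 2.92 RPM in Nons_a, Nons_b and Luc with 5-aza. It was 1.30, 1.23 and 1.38 RPM in the knockdown libraries with 5-aza. The 6 hairpin libraries without 5-aza had medians from 1.17 to 1.48 RPM. The library PGK_5aza, treated with 5-aza but with no named hairpin and so in no group, had 1.23 RPM. It is a single library of 20.4 M reads. The study used a PGK sample to define PGK variants, so this library may differ from the hairpin cells in strain and genotype. It was therefore not taken as a matched control. Between the 4 hairpin groups the difference lay in the controls with 5-aza being high, and not in the knockdown with 5-aza being low relative to untreated cells. Gm17430, a processed pseudogene, was read at 4.41, 5.64 and 5.701 RPM in the controls and 1.2003, 1.19 and 1.27 RPM in the knockdown (-2.096 ± 0.13, adjusted p = 1.25e-06). Gm2174, on the X chromosome and annotated as protein coding, had 3.66, 3.67 and 4.35 RPM against 1.0002, 0.936 and 0.959 RPM (-2.01 ± 0.14). Gm5068, Rpl27a-ps2, Rps15a-ps1 and Rpl21-ps5 fell by -1.96, -2.06, -1.87 and -1.79. Of these, Gm2174, Rpl27a-ps2, Rps15a-ps1 and Rpl21-ps5 had means under 1 RPM outside the controls with 5-aza. Their entry into the test rested largely on those controls. The actin-like gene Actbl2, among the 32 genes but not the 51, fell by -2.05.

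Of 40 tested ribosomal protein pseudogenes 20 fell with 5-aza and 1 without, while of 82 ribosomal protein genes 5 rose and 10 fell, with a median of 0.01. The parent gene Rps15a had 0.27, Rpl27a -0.13 and Rpl21 -0.08. Some ribosomal protein genes did share the pattern of the pseudogenes. Rps6, Rps13, Rpl35 and Rpsa had -0.89, -0.84, -0.56 and -0.44 with 5-aza, and 0.24, 0.11, 0.21 and 0.28 without it. In each, the controls with 5-aza had the highest mean of any hairpin group, and the interaction test was passed. These genes were picked after their values were seen. Rps15a-ps2 was different in kind, since it fell from 6.05, 6.48 and 7.26 RPM to 1.52, 1.73 and 1.42 RPM with 5-aza (-2.08 ± 0.10) and by -2.02 without it. Pseudogenes share sequence with their parents and with each other, and how reads matching several places were counted was not given in the sources used here, so single pseudogene values are uncertain. Without processed pseudogenes, 1881 of 12840 genes rose and 637 fell. The part of the 3 control libraries' position in these falls was not tested further.

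**Figure D5:**
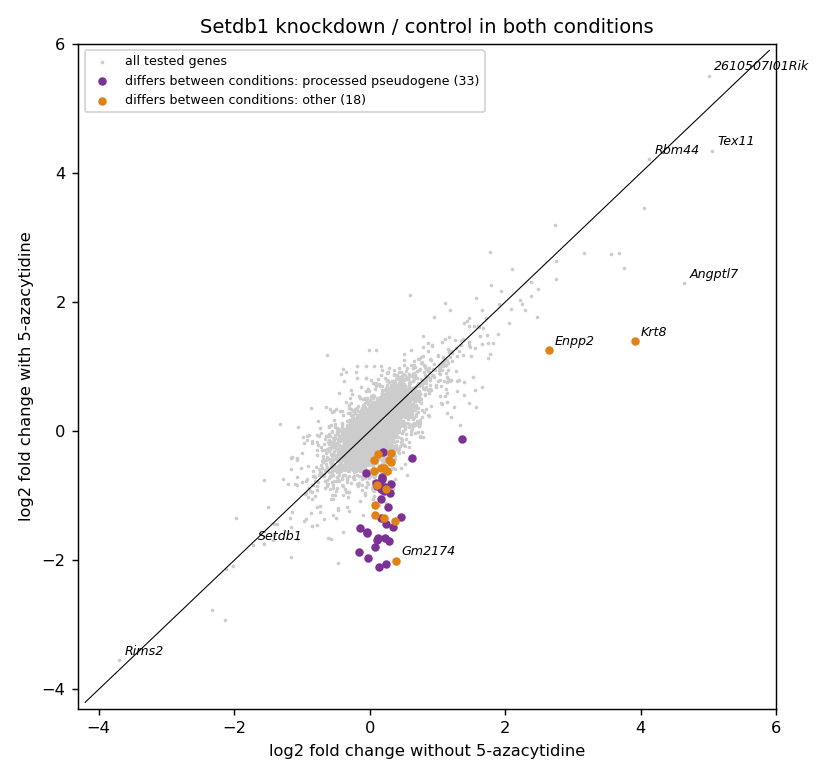
The log2 fold change of each tested gene with 5-aza against that without it, with the line of equal values, the 33 processed pseudogenes at which the effects differed in purple and the 18 other such genes in orange. The purple points lie from -0.16 to 1.37 on the horizontal axis and from -2.10 to -0.12 on the vertical axis, below the line, while Rims2, Setdb1, Rbm44 and 2610507I01Rik lie close to the line.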

How the data were processed

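Poly(A) RNA libraries (TruSeq RNA, which does not mark strand) were sequenced by the authors as 100-bp single-end reads, and the deposited values are log2 RPM (reads of a gene relative to the reads of the library) for each gene interval, as the name of the authors' table states. The submitters' processing notes name CASAVA 1.4 and the build mm10. The study's methods describe an alignment with TopHat and Bowtie1 to chromosome X of mm9 for counting alleles, which is another build than that of this table of all chromosomes. The aligner and the counting behind the table, and its use of strand, are not given in the sources used here. All values above 0 reads were, within 0.01 read, whole numbers of the smallest step in their column, from which the reads and the depth of each library were recovered, and a count of 0 allows up to 3 reads. Intervals and limits cover counting error only.

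A gene was tested where 3 or more of the 12 hairpin libraries reached 1 RPM, which left 13134. The limma package (version 3.58.1, R version 4.3.3) was run on their log2 RPM values, with a trended prior and the group as the term. All 12 libraries shared the estimate of the spread. Contrasts were the Setdb1 hairpin against the control hairpin with 5-aza, the same without 5-aza, and their difference (interaction), each two-sided with Benjamini-Hochberg adjustment over all genes tested and a threshold of 0.05. The error given with a log2 fold change is its standard error, and n was 3 against 3. All adjusted p-values in the text come from these limma fits. The script was tested on simulated data. Plots were drawn with matplotlib 3.10.9 and tables built with pandas 2.3.3 under Python 3.11.15.

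Members and gene lists were chosen with earlier results of these data known. The genes named are the H3K9 methyltransferases, the 15 largest rises and 15 largest falls among called genes whose groups do not overlap, up to 3 called members in each direction of each list (or the 2 most abundant where none passed), and the 3 largest rises and 3 largest falls on chromosome X. Names beyond the rule are marked, except Gins1, Gins2, Dnmt3a, Dnmt3b, Dazl and the parent genes of pseudogenes, which are also outside it. Alternatives were another pseudocount, filter or scaling, a GC correction, voom on the recovered reads, the 6 libraries with 5-aza alone, a replicate block and leaving out each library. The library PGK_5aza, which names no hairpin, entered no comparison, and 1 value of it is given. Coordinates are in GRCm38, and biotypes come from GENCODE.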

Additional observations from a re-analysis of the deposited data

Results flagged for a closer look

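For 7 genes picked by the naming rule, the limma interaction test was passed. In these the effect of the Setdb1 hairpins differed between cells with and without 5-aza. The log2 difference, with minus without 5-aza, was -2.24 for Gm17430, -2.30 for Rpl27a-ps2, -2.40 for Gm2174, -1.94 for Gm5068, -1.72 for Rps15a-ps1 and -1.86 for Rpl21-ps5, with adjusted p from 1.13e-04 to 0.0275. In these 6 genes the control libraries with 5-aza were the high ones. Rpl27a-ps2, Rps15a-ps1 and Rpl21-ps5 had means under 1 RPM in every other hairpin group. Their entry into the test thus rested largely on these controls, and the filter favoured this pattern. The difference was -2.53 for Krt8 (adjusted p = 0.0139), whose controls without 5-aza held 1 read each.

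Below the filter, and so outside every comparison, 62 genes were read at most 3 times in every control with 5-aza and more than 3 times in each Setdb1 knockdown library with 5-aza, against 35 genes with the reverse pattern. Without 5-aza 12 of the 62 met the same rule. These counts were not tested.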

How the results depend on the processing

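No called gene changed direction under any alternative. The number of genes called with 5-aza, 2609 as reported, was 1548 when the 6 libraries with 5-aza were fitted alone. It ranged from 1279 (without Setdb1_6) to 3428 (without Setdb1_4a) when 1 library was left out, and was 1409 without Setdb1_4b, 1503 without Nons_b and 1621 without Nons_a. The number of genes in the interaction, 51 as reported, was 19 with at least 5 RPM, and ranged from 29 (without Setdb1_4b) to 42 (without Nons_a) with 1 library left out, with 30 without Nons_b. The letters a and b in the names were not shown to pair the samples: deviations from the group means correlated at 0.686 for a and -0.0197 for b, and only 2 such pairs exist. With these letters as a replicate block 3336 genes were called and 76 in the interaction. In that fit the Luc and shSetdb1.6 libraries each formed a block of their own. The knockdown effect there thus rested mainly on the Nons and shSetdb1.4 libraries.

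Of 122 genes picked by the naming rule and past the threshold, Setdb1 aside, 76 passed in every alternative. The other 46 lost the call in at least 1, 13 of them only where a library was left out. The log2 fold changes near 0 turned sign for Ehmt1 after centring (-0.019) and quantile normalization (-0.0036), and for Csf1r after centring (-0.015), after quantile normalization (-0.024) and without Nons_a (-0.012), with 0.11 without Luc as its highest value. At under 2 RPM, large differences rest on few reads.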

Other observations

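Among the 62 genes below the filter that were read in each knockdown library with 5-aza were 6 members of the germline list, most of them genes of the piRNA pathway, which silences transposons in germ cells. Mael, a piRNA pathway protein, had 0 reads in Nons_a, Nons_b and Luc and 12, 15 and 16 reads in Setdb1_4a, Setdb1_4b and Setdb1_6. Gtsf1, a partner of Piwi proteins, had 0, 2 and 2 reads against 20, 21 and 13 reads. Fkbp6 had 0, 2 and 2 reads against 10, 15 and 16 reads, and Gpat2 had 3, 2 and 1 reads against 8, 15 and 12 reads. The helicase gene Mov10l1 had 3, 0 and 2 reads against 10, 7 and 6 reads, and Slc25a31, a mitochondrial carrier of sperm, had 3, 0 and 0 reads against 8, 5 and 5 reads. In all 6 the groups were apart, as the rule that picked them required, and 1 member of the list had the reverse pattern. Of the 79 intervals of the list 58 were not tested. Outside the list, the phospholipase gene Pla2g5 had 0, 0 and 1 reads in the controls and 24, 32 and 28 reads in the knockdown. These genes were chosen by their values, and their reads are given as a description only.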
